A study of Mus musculus with 4 samples.

Results

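The unfolded protein response and the integrated stress response were described through 34 genes in 4 cultures labelled hepatocyte-like cells. The sample titles call the same cultures mESCs (mouse embryonic stem cells). The genes were chosen by symbol from the published biology of both pathways, and all 34 were found among the 78028 rows of each library table. They comprise 3 stress sensors of the endoplasmic reticulum (ER) membrane, 4 transcription factors, 9 target genes of the integrated stress response and 18 genes of protein folding and degradation in the ER. The cultures were each differentiated separately from E14TG2a, a mouse embryonic stem cell line, with a mixture named advanced hepatic-inducing cocktail (A-HIC). They form a single group of n = 4 with no untreated or undifferentiated control, and each library is called by the replicate number in its label. Polyadenylated RNA was sequenced without strand information, and the series as a whole asked how hepatic and how mature these cells were.

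Proteins that are secreted or placed in membranes fold in the ER. When unfolded protein accumulates there, the kinases PERK and IRE1 and the membrane-bound factor ATF6 are activated: ATF6 is cut to release a transcription factor, IRE1 starts the splicing of Xbp1 mRNA, and both raise the transcription of chaperones and degradation genes. PERK belongs to a family of kinases that phosphorylate the translation factor eIF2 alpha, which lowers general translation while the translation of Atf4 mRNA increases, and ATF4 then activates genes of amino acid supply. Hepatocytes, which secrete most plasma proteins, are known for a large ER. A count of reads per gene measures neither splicing, cleavage nor phosphorylation, so the values below are transcript levels and not pathway activity.

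The libraries held 29.5 to 40.2 M counts. Of 15 hepatocyte markers, 3 reached 1 TPM (a level scaled for gene length and library size, so that the levels of a library have a fixed sum) in all 4 libraries, 4 had at most 3 counts in any library, and Fabp1 and Cyp2e1 had 0 counts in all of them. The summed level of these 15 markers was 12.6, 92.4, 15.9 and 36.2 TPM in libraries 1 to 4. All 10 pluripotency markers were above 1 TPM, with sums of 7749, 4231, 7007 and 5291 TPM. Alb was at 0.455, 7.19, 0 and 0.492 TPM, and the highest hepatocyte markers, Ttr and Afp, reached 30.8 and 30.0 TPM in library 2. Most of the hepatocyte markers were thus low beside the pluripotency markers. The labels name both cell types, and the cultures are named below only by their library numbers. In these bulk samples, fewer cells of a type and less RNA per cell cannot be told apart.

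Every one of the 34 genes was above 10 TPM in every library. Their mean levels ran from 13.97 TPM (Vldlr) to 1807 TPM (Calr), and the median of their mean levels was 135 TPM, beside 18.4 TPM over the tested genes with a known length and 7.54 TPM over all protein-coding genes. The lowest member stood at the 57.9th percentile of protein-coding genes and the highest at the 99.86th. Together the members took 0.893%, 1.03%, 0.929% and 0.972% of all counts in libraries 1 to 4. The share was lowest in library 1 and highest in library 2.

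**Figure D1:**
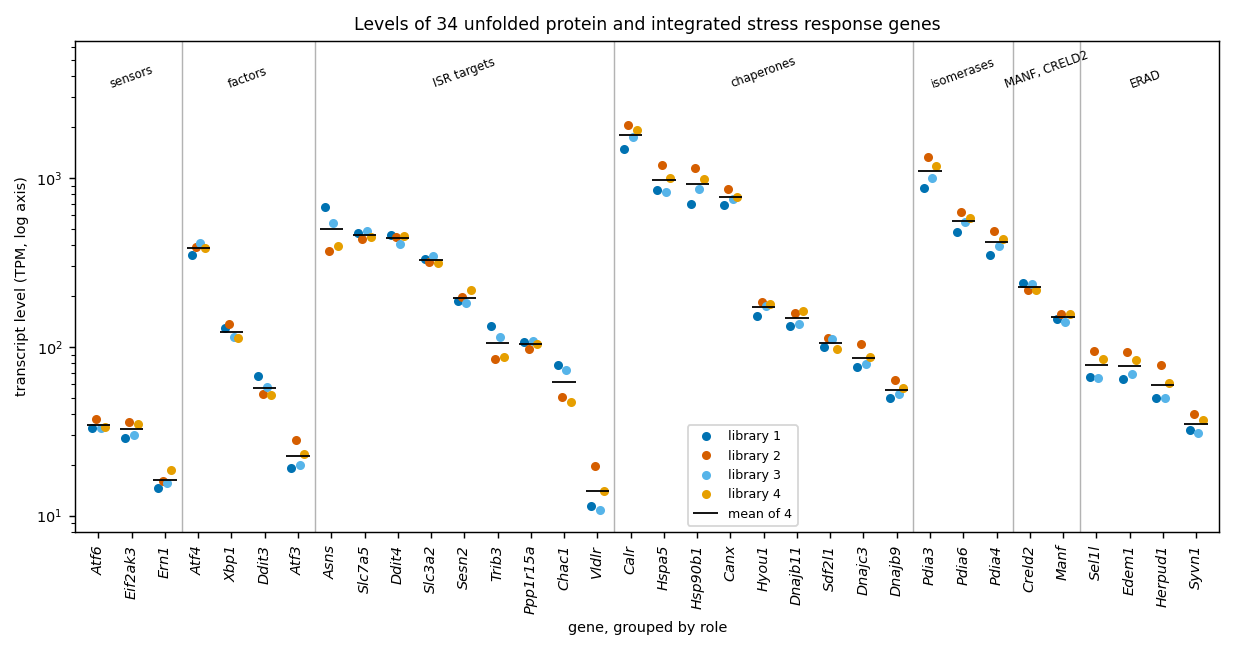
Level of each of the 34 genes (TPM, log axis) in libraries 1 to 4 (points) with the mean of the 4 cultures (black line), grouped by role (ISR, integrated stress response). Calr, Pdia3, Hspa5 and Hsp90b1 had the highest means and Vldlr, Ern1 and Atf3 the lowest.

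Promoter sequences were available for 30 of the 34 members, from 250 bases before to 50 bases after the annotated start (RefSeq, GRCm38.p6, which is not the build of the counts). They are shown for the short elements that some members carry: 15 of the 30 held a match to any of those searched, and 15 held none. The ER stress element, through which ATF6 is known to act together with the factor NF-Y, was searched on both strands as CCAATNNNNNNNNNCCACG. It was present in 8 of 30 members (26.7%) and in 37 of 27025 genes (0.137%). Its compact form, ATTGGNCCACG, was present in 2 members (6.67%) and in 12 genes (0.0444%). The C/EBP-ATF response element, known to be bound by ATF4 with its partners, was searched as TGATGNAAN and was present in 6 members (20%) and in 1215 genes (4.5%). Its longer core TTGCATCA, which overlaps these matches, was present in 4 members (13.3%) and in 279 genes (1.03%). The element TGACGTGG, linked to XBP1, was in none of the 30 windows and in 193 genes (0.714%). Only exact matches were counted. The members were chosen from the published biology of these same pathways, so the shares are a description and were not tested. A match describes letters in a window and is not a measured binding site.

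The 250 bases before the start of 4 members are printed below, 5′ to 3′ on the strand of the gene. Capitals mark the elements, and an element found on the other strand appears as its reverse complement. Hspa5 and Hsp90b1 carry exact matches to the ER stress element, the first 1 match and the second 2 matches in opposite directions. Herpud1 was the only member with both classes, a TGATGNAAN match read on the other strand followed by the compact ER stress element. Asns carries a TGATGNAAN match at positions -23 to -15 from the start.
Hspa5 (chr2:34771840-34772089, plus strand): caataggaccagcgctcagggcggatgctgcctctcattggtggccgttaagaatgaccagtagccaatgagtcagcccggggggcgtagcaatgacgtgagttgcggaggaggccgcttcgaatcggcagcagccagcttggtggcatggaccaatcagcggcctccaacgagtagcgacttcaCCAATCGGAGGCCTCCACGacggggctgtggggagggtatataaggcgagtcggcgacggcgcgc
Hsp90b1 (chr10:86705445-86705694, minus strand): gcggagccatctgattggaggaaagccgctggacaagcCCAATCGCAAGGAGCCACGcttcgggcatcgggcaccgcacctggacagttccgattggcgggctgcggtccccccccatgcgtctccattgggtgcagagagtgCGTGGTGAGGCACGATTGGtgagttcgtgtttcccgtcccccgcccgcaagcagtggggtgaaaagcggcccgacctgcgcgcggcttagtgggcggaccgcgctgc
Herpud1 (chr8:94386179-94386428, plus strand): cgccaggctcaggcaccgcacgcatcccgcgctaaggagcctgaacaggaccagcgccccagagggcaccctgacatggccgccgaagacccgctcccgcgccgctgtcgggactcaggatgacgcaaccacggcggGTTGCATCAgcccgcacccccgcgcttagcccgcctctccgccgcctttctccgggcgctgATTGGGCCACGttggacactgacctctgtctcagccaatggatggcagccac
Asns (chr6:7693210-7693459, minus strand): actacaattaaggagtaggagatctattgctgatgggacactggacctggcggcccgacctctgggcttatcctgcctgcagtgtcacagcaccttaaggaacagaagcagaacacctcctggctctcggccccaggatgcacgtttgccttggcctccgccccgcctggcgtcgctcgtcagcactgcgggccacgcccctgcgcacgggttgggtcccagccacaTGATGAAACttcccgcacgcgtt

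The other ER stress elements are shown with 10 bases on either side to let their spacing be compared: CCAAT and CCACG are held apart by 9 bases that differ between genes. Calr and Creld2 carry the element on the other strand. Dnajb11 carries the compact form, which lies at positions 8 to 18 after the start.
Calr (chr8:84847065-84847103, minus strand): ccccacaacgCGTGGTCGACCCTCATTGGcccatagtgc
Canx (chr11:50325790-50325828, minus strand): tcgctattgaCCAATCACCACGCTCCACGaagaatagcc
Pdia6 (chr12:17266481-17266519, plus strand): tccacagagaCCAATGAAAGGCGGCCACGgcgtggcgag
Dnajc3 (chr14:118937817-118937855, plus strand): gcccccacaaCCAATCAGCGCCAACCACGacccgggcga
Creld2 (chr15:88819510-88819548, plus strand): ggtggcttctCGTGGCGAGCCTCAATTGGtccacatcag
Syvn1 (chr19:6046522-6046560, plus strand): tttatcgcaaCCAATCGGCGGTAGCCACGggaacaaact
Dnajb11 (chr16:22857842-22857872, plus strand): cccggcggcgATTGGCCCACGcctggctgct

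The remaining matches to TGATGNAAN lay in Atf3, Chac1, Trib3 and Vldlr, all on the other strand, so that they read NTTNCATCA here. Those of Atf3, Chac1 and Vldlr hold the longer core TTGCATCA and that of Trib3 does not. No promoter entry was used for Atf6, Slc7a5, Hyou1 and Manf. Vldlr had 2 promoter entries, both searched.
Atf3 (chr1:191183426-191183454, minus strand): ccttctcgcaCTTGCATCAccaagtccgc
Chac1 (chr2:119351038-119351066, plus strand): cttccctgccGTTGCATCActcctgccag
Trib3 (chr2:152344029-152344057, minus strand): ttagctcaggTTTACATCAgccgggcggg
Vldlr (chr19:27216809-27216837, plus strand): agcagcaataGTTGCATCAgcgctcctag

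The sensors were the least abundant role, with ranges of 1.14- to 1.28-fold between cultures. Atf6 was at 33.0, 37.5, 33.0 and 33.7 TPM in libraries 1 to 4 (34.3 ± 2.13, SD, n = 4). Library 2 stood above the other 3, which lay within 1 TPM of each other. Eif2ak3, which encodes PERK, was at 28.8, 36.1, 30.0 and 34.9 TPM (32.4 ± 3.58), lowest in library 1 and highest in library 2. Ern1, which encodes IRE1 alpha, was at 14.6, 16.0, 15.6 and 18.6 TPM (16.2 ± 1.73), highest in library 4. Its epithelial relative Ern2 had 0 counts in all libraries. Among the eIF2 alpha kinases, Eif2ak3 was above Eif2ak4 (GCN2, the amino acid sensor) by a log2 ratio of 0.81 ± 0.21. It was below Eif2ak1 (HRI, the heme-regulated kinase), with a ratio of -0.28 ± 0.13, and below Eif2ak2 (PKR, the kinase activated by double-stranded RNA), with a ratio of -1.01 ± 0.097. These orders held in all 4 libraries.

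Of the 4 transcription factors, Atf4 was the most abundant, at 352, 393, 413 and 384 TPM (385 ± 25.5), with a range of 1.17-fold between cultures. Xbp1 was at 128, 136, 115 and 112 TPM (123 ± 11.3), higher in libraries 1 and 2 than in 3 and 4. Ddit3, which encodes the factor CHOP, was at 67.1, 52.4, 57.9 and 51.7 TPM (57.3 ± 7.09), highest in library 1. Atf3, a stress-induced factor, was at 19.2, 28.1, 19.9 and 23.2 TPM (22.6 ± 4.06), highest in library 2. Both CHOP and ATF3 are encoded by genes that ATF4 is known to activate, and both transcripts were well below that of Atf4: the log2 ratio was -2.75 ± 0.24 for Ddit3 and -4.10 ± 0.24 for Atf3. Ddit3 was higher in library 1 than in library 2, and Atf3 was lower there.

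Targets of the integrated stress response were divided, by their range between these same cultures, into a steady group and a variable group. The steady genes were the amino acid exchanger subunits, the mTORC1 regulators and the phosphatase subunit. Slc7a5 (the light chain of the LAT1 exchanger of large neutral amino acids) was at 474, 435, 489 and 449 TPM (462 ± 24.0). Slc3a2 (its heavy chain) was at 329, 319, 343 and 315 TPM (326 ± 12.7), the smallest range of all members at 1.09-fold. The log2 ratio of the light to the heavy chain was 0.50 ± 0.034, with values from 0.45 to 0.53. Slc7a5 was above its family member Slc7a8 (LAT2) by 5.61 ± 0.96 on the log2 scale, from 4.45 in library 2 to 6.68 in library 1. Ddit4 (REDD1, an inhibitor of mTORC1) was at 462, 444, 408 and 452 TPM (442 ± 23.3). Sesn2 (sestrin 2, a leucine sensor that also inhibits mTORC1) averaged 196 ± 16.6 TPM. Ppp1r15a (GADD34, the stress-induced subunit that directs phosphatase to eIF2 alpha) averaged 104 ± 5.18 TPM. It was below its constitutive relative Ppp1r15b in every library, with a log2 ratio of -0.59 ± 0.20.

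The variable targets were Asns, Trib3, Chac1 and Vldlr. Asns (asparagine synthetase) was at 677, 372, 543 and 398 TPM (497 ± 141), a range of 1.82-fold. Trib3 (a pseudokinase that restrains ATF4 and CHOP) was at 134, 85.1, 114 and 86.7 TPM (105 ± 23.4), a range of 1.57-fold. Chac1 (an enzyme that breaks down glutathione) was at 77.9, 50.2, 73.3 and 46.8 TPM (62.1 ± 15.8), a range of 1.66-fold. All 3 were higher in libraries 1 and 3 than in libraries 2 and 4, with no overlap, a split shared by 29.05% of tested genes with a known length (30.0% had the reverse split). Their summed level was 888, 507, 730 and 532 TPM. Asns and Chac1 were the members with an SD of log2 CPM (counts scaled for library size alone) above the 90th percentile of tested genes, at percentiles 93.6 and 91.1. Vldlr (a lipoprotein receptor whose gene ATF4 is known to activate) went the other way: it was at 11.4, 19.8, 10.7 and 14.01 TPM (13.97 ± 4.12), with the largest range of all members at 1.84-fold. All 4 variable targets carry a TGATGNAAN match, but Vldlr did not share the library order of the other 3. Of the steady targets, Slc3a2, Ddit4, Sesn2 and Ppp1r15a held no match, and Slc7a5 had no promoter entry. Because the groups were drawn from the spread in these libraries, a link between the match and the spread was not tested.

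The 9 ER chaperones and co-chaperones ran from a mean of 55.6 TPM (Dnajb9) to 1807 TPM (Calr). Calr (calreticulin, a calcium-binding lectin chaperone) was at 1487, 2068, 1745 and 1929 TPM (1807 ± 251). Hspa5 (BiP, the ER Hsp70) was at 850.1, 1196, 831 and 1002 TPM (969.5 ± 169). Hsp90b1 (GRP94, the ER Hsp90) was at 706, 1145, 865 and 982 TPM (925 ± 186), a range of 1.62-fold. Each was highest in library 2 and next highest in library 4. Canx (calnexin, the membrane-bound lectin chaperone) averaged 769.5 ± 71.3 TPM and was below Calr in every library, with a log2 ratio of Calr to Canx of 1.23 ± 0.096. Hyou1 (GRP170, a nucleotide exchange factor of BiP) averaged 172 ± 14.3 TPM.

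The co-chaperones of BiP were less abundant. Dnajb11 was at 132, 158, 136 and 164 TPM (147 ± 15.5), and was the only ER chaperone highest in library 4. Sdf2l1, a partner of Dnajb11, was at 99.9, 113, 111 and 96.8 TPM (105 ± 8.05), and was the only one lowest in library 4. Dnajc3 (P58IPK, also an inhibitor of PERK) was at 75.5, 104, 79.2 and 87.1 TPM (86.4 ± 12.4). Dnajb9 (ERdj4, a repressor of IRE1) was at 49.5, 63.5, 52.4 and 57.0 TPM (55.6 ± 6.12). Both were lowest in library 1 and highest in library 2. Scaled for length, Hspa5 and Hsp90b1 were close: their log2 ratio was 0.27, 0.06, -0.06 and 0.03 in libraries 1 to 4, so the sign was not the same in all cultures.

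The 3 protein disulfide isomerases shared 1 order of libraries, 1 below 3, 3 below 4 and 4 below 2, which was also that of 13.2% of tested genes. Pdia3 (ERp57, which works with calnexin and calreticulin) was at 878, 1330, 997 and 1183 TPM (1097 ± 200), a range of 1.51-fold. Pdia6, an isomerase that also acts on IRE1 and PERK, was at 477, 630.2, 547 and 579 TPM (558 ± 64.3). Pdia4 (ERp72) was at 349, 485, 398 and 437 TPM (417 ± 58.0). Manf and Creld2, stress-induced ER proteins that can be secreted, did not follow this order. Manf, known as a trophic factor, was at 146, 157, 139.9 and 156 TPM (149.6 ± 7.95), and Creld2 at 239, 216, 236 and 218 TPM (227 ± 12.1). Creld2 was the only 1 of the 18 ER folding and degradation members that was highest in library 1, and it carries the ER stress element printed above.

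ER-associated degradation (ERAD) removes proteins that fail to fold. Its 4 members were moderately expressed and all highest in library 2. Sel1l, the adaptor of the ERAD ubiquitin ligase, was at 66.5, 95.0, 65.2 and 84.5 TPM (77.8 ± 14.5). Edem1, which marks glycoproteins for removal, was at 64.1, 92.5, 68.8 and 83.0 TPM (77.1 ± 13.0). Both were higher in libraries 2 and 4 than in 1 and 3, and so were Herpud1 and Syvn1. This split was found in 16 of the 18 ER folding and degradation members (88.9%) and in 22 of the 34 members (64.7%), beside 30.0% of tested genes. Herpud1, a membrane protein that organises the ERAD complex, was at 49.6, 78.3, 49.5 and 61.2 TPM (59.7 ± 13.6), a range of 1.58-fold. Syvn1 (HRD1, the ubiquitin ligase itself) was at 32.0, 40.0, 31.0 and 36.9 TPM (35.0 ± 4.25), below Sel1l by a log2 ratio of 1.14 ± 0.093. Without strand, reads cannot be assigned within 146 exonic bases that Manf shares with Dcaf1 (4.14% of its length), 91 that Syvn1 shares with Mrpl49 (1.87%) and 68 that Ddit3 shares with Mars1 (3.97%).

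Across the 18 ER folding and degradation members, 16 were highest in library 2 (14 by CPM) and 11 were lowest in library 1. Of the 16064 tested genes with a known length, 29.8% were highest in library 2 and 32.0% were lowest in library 1. The summed level of the 18 members was 6550 TPM in library 1, 9021 in library 2, 7271 in library 3 and 8103 in library 4, a range of 1.38-fold. The median deviation from each gene's own mean was -0.18, 0.20, -0.09 and 0.06 on the log2 scale in libraries 1 to 4, and -0.02, 0.00, 0.01 and 0.00 over the tested genes. The 9 targets of the integrated stress response had other maxima: 4 were highest in library 1, 3 in library 3, 1 in library 2 and 1 in library 4. Over the tested genes, 26.25%, 29.8%, 23.8% and 20.2% were highest in libraries 1 to 4, and 9 genes are few for such a comparison. The median deviations of the 9 targets were 0.04, -0.08, 0.07 and -0.04.

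Promoter class and library order were set side by side. Of the 10 members with either form of the ER stress element, 8 were highest in library 2, the exceptions being Dnajb11 and Creld2. Of the 20 members whose promoter held neither form, 10 were highest in library 2. All 10 carriers belong to the ER folding and degradation roles, whereas the 20 also include sensors, transcription factors and targets of the integrated stress response. Within the ER roles, Pdia3, Pdia4, Dnajb9, Sdf2l1, Edem1 and Sel1l held neither form, and each was highest in library 2. Of the 6 with a TGATGNAAN match, Asns, Trib3 and Chac1 were highest in library 1, and Atf3, Herpud1 and Vldlr in library 2. These counts were not tested.

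**Figure D2:**
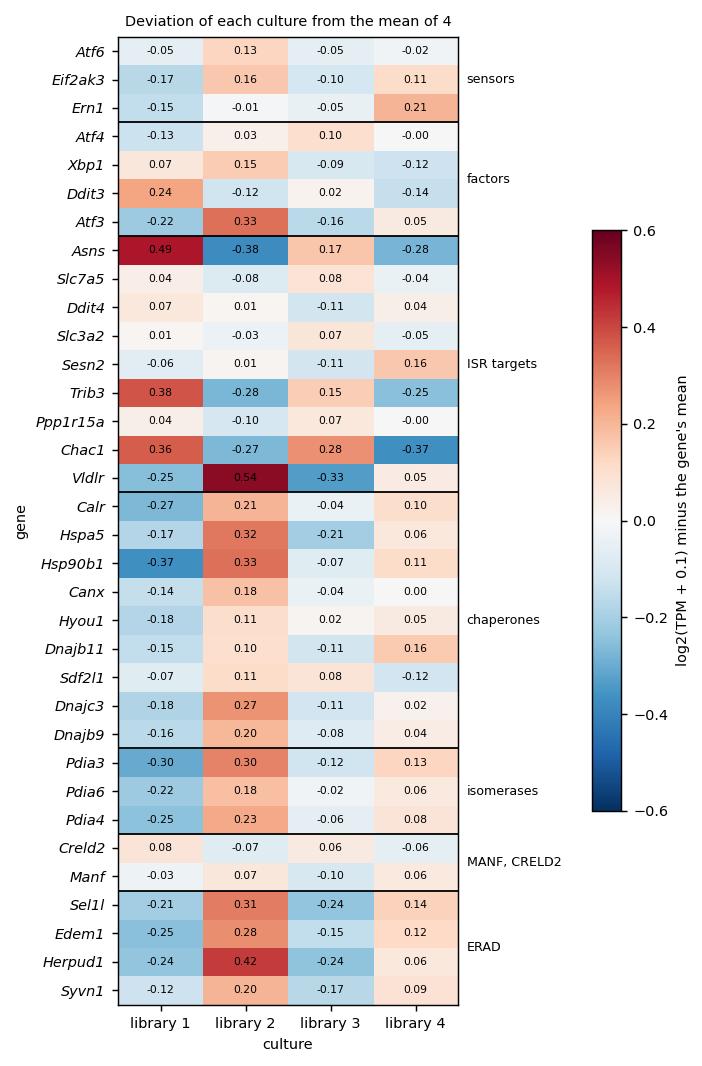
Deviation of each library from the gene's mean over the 4 cultures, on the scale log2(TPM + 0.1), for 34 genes grouped by role (red above the mean, blue below). Most ER chaperone, isomerase and ERAD genes are above their mean in library 2 and below it in library 1, with the reverse for Asns, Trib3 and Chac1.

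Markers of other cell types moved with the same libraries. The 10 parietal endoderm markers, a basement membrane set led by Sparc and collagen IV, were all above 1 TPM in every library and summed to 3725, 11085, 4447 and 8625 TPM. The 10 fibroblast markers, also all above 1 TPM in every library, summed to 2403, 4745, 2094 and 3578 TPM. Both sums were higher in libraries 2 and 4 than in 1 and 3, and so was the hepatocyte sum given above. The pluripotency sum was lower in libraries 2 and 4. Of tested genes with a known length, 30.0% were higher in libraries 2 and 4, and 29.05% had the reverse split. The 3-gene sum of Asns, Trib3 and Chac1 followed the order of the pluripotency sum, 2 below 4, 4 below 3 and 3 below 1. That was also the order of 10.8% of tested genes. These 3 genes were grouped by their values in these same libraries, and Chac1 alone was lowest in library 4. The part of these cell type markers in the library differences of the members was not tested.

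**Figure D3:**
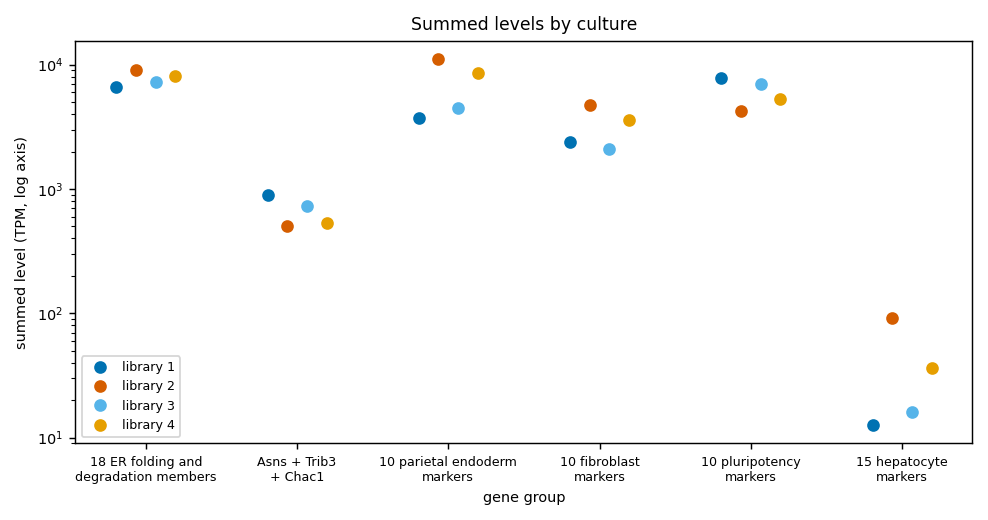
Summed level (TPM, log axis) in libraries 1 to 4 of the 18 ER folding and degradation members, of Asns, Trib3 and Chac1, and of 4 marker lists. The ER members, parietal endoderm, fibroblast and hepatocyte sums were highest in library 2, and the pluripotency and 3-gene sums were lowest there.

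With a single group, the tests the design allows set 1 culture against the other 3. The lone culture is then assumed to vary like the others, the 4 comparisons share libraries, and a p-value measures the spread between these cultures alone. With edgeR's quasi-likelihood test and Benjamini-Hochberg adjustment over 17398 genes, 0 members passed an adjusted p of 0.05 in any of the 4 comparisons, and 0% of all genes did. At an unadjusted p under 0.05, edgeR gave 3 members for library 1 (5.32% of all genes), 4 for library 2 (7.38%), 0 for library 3 (1.57%) and 0 for library 4 (1.55%). DESeq2 also called 0 members at an adjusted p under 0.05, where it called 0.046% of all genes for library 1, 0.397% for library 2, 0.0172% for library 3 and 0.0172% for library 4. Its members at an unadjusted p under 0.05 numbered 3, 4, 0 and 0, beside 5.78%, 6.92%, 1.78% and 1.4% of all genes.

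The members nearest to the threshold belonged to both branches of the response. In library 1, Asns was higher by 0.65 ± 0.21 (log2 fold change ± SE) and Trib3 by 0.51 ± 0.19, and Hsp90b1 was lower, at -0.48 ± 0.18. The edgeR p-values of these 3 were 0.0179, 0.0352 and 0.0367, with an adjusted p of 0.723 each. In library 2, Vldlr was higher by 0.72 ± 0.19, Herpud1 by 0.55 ± 0.18, Hspa5 by 0.42 ± 0.14 and Dnajc3 by 0.36 ± 0.13. The edgeR p-values were 0.00769, 0.0197, 0.0240 and 0.0284, with an adjusted p of 0.626 each. None of these differences held after adjustment.

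**Figure D4:**
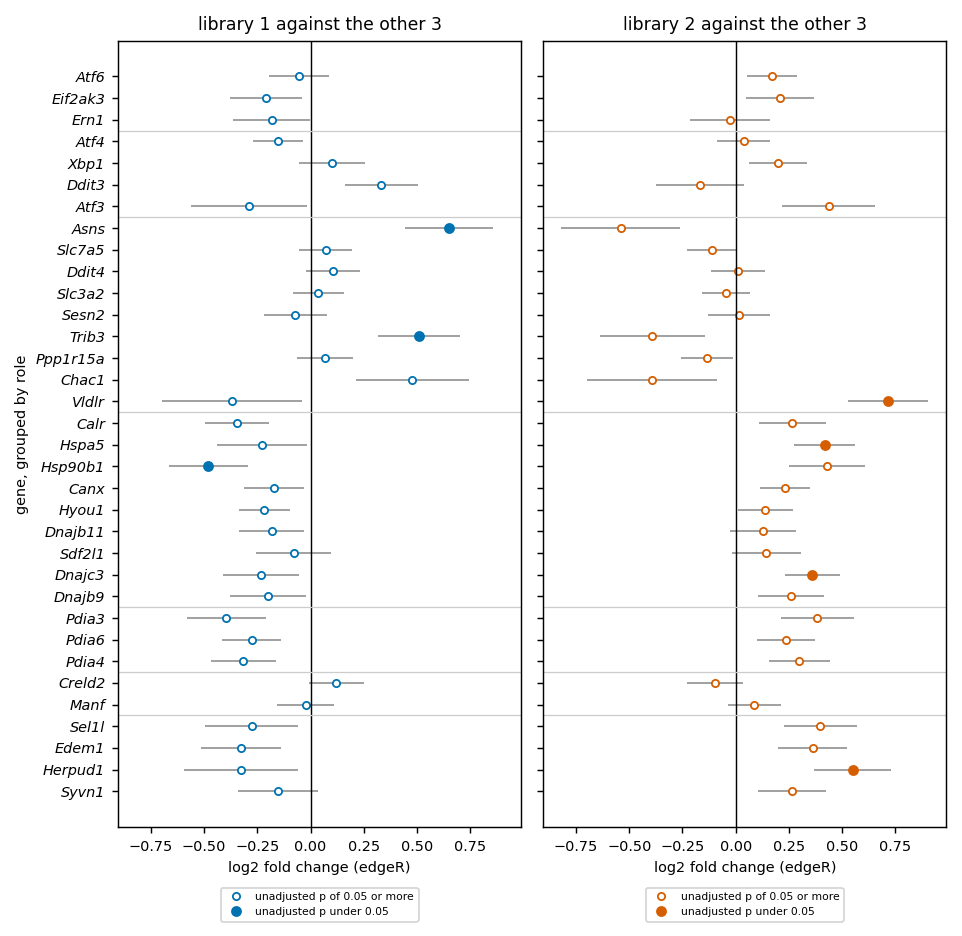
Log2 fold change of library 1 (left) and library 2 (right) against the other 3 libraries for each member, with its standard error (edgeR). Filled points had an unadjusted p under 0.05, and no point passed after adjustment over all genes.

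By sign alone, 24 of 34 members were lower in library 1 (median log2 fold change -0.18) and 25 were higher in library 2 (median 0.18), beside 50.8% of tested genes lower in library 1 and 48.1% higher in library 2. In library 3, 24 members were lower (median -0.12), beside 52.6% of tested genes, and in library 4, 21 were higher (median 0.05), beside 47.6% of tested genes.

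The calls depended on which cultures were compared. In the fits that follow, 1 library was left out, so the spread came from only 2 libraries, and these calls hold for those libraries alone. Only the leave-out fits that gave calls are listed. In each, the library left out shared its side of the split of 1 and 3 from 2 and 4 with the library tested. Without library 3, library 1 was set against libraries 2 and 4, and 9 members passed with edgeR (26.5% of members, beside 12.4% of all genes). Asns, Chac1 and Trib3 were higher there, and Hsp90b1, Pdia3, Pdia4, Edem1, Sel1l and Vldlr were lower. Without library 4, library 2 was set against libraries 1 and 3, and 13 members passed (38.2%, beside 14.4% of all genes). Calr, Hspa5, Hsp90b1, Dnajc3, Pdia3, Pdia4, Edem1, Herpud1, Sel1l and Vldlr were higher, and Asns, Chac1 and Trib3 were lower. Without library 1, 4 members passed for library 3 (11.8%, beside 7.35% of all genes): Asns and Chac1 higher, Sel1l and Vldlr lower. Without library 2, 4 passed for library 4 (11.8%, beside 7.8% of all genes): Sel1l higher, Asns, Chac1 and Trib3 lower. With no filter on low counts, Asns passed for library 1 (0.836% of all genes) and Vldlr for library 2 (1.19%), both higher.

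The spread of the members between cultures was modest. The median SD of log2(CPM + 1) was 0.13 for the members and 0.17 for the tested genes. Scaled by TMM factors instead, the values were 0.16 and 0.17. Manf and Atf6 had the smallest SDs on the unscaled measure, at the 4.08th and 4.12th percentile of tested genes.

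Members were set beside related genes in 33 pairs, as log2 ratios of TPM. The member was above its relative in all 4 libraries in 18 pairs and below it in 13, and the sign differed between libraries in 2. An exact sign-flip test over 4 libraries cannot go below p = 0.125, so no p is given. Among pairs with both genes detected, the highest ratios were Manf to Cdnf (6.07 ± 0.31) and Slc7a5 to Slc7a8. No fold is given for Ern1 against Ern2, since Ern2 had no count. The lowest were Atf3 to Atf4, Hsp90b1 to its cytosolic counterpart Hsp90ab1 (-3.23 ± 0.36) and Ddit3 to Atf4. Genes often described as stress-induced were above their relatives in several families: Trib3 to Trib1 (2.81 ± 0.35), Trib3 to Trib2 (3.12 ± 0.64), Sesn2 to Sesn1 (2.85 ± 0.34), Sesn2 to Sesn3 (3.38 ± 0.35), Ddit4 to Ddit4l (4.55 ± 0.28), Chac1 to Chac2 (1.32 ± 0.33) and Creld2 to Creld1 (2.95 ± 0.073). In other families the member was below: Sdf2l1 to Sdf2 (-0.79 ± 0.23) and Atf6 to Atf6b (-1.19 ± 0.21). The direction for Atf6 rests on the correction for length, since it was 0.55 without it.

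**Figure D5:**
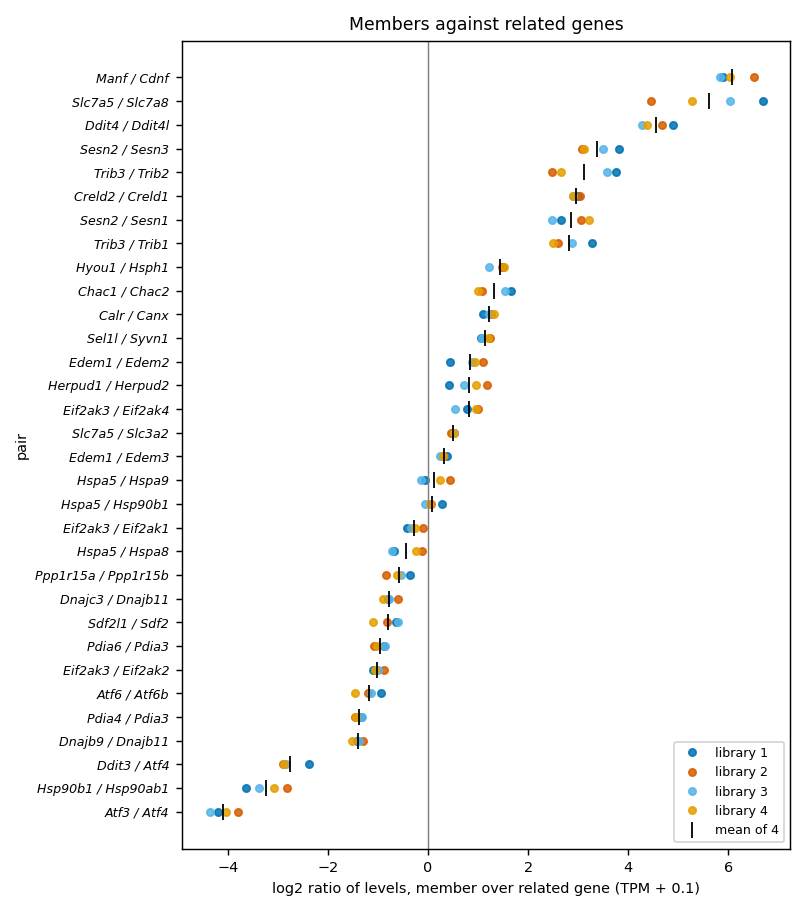
Log2 ratio of the level of a member to that of a related gene in libraries 1 to 4 (points) and its mean (black tick), for each pair; the pair with Ern2, which had no count, is left out. Ratios run from Atf3 to Atf4 at -4.10 to Manf to Cdnf at 6.07, and those of Hspa5 to Hspa9 and to Hsp90b1 lie on both sides of 0.

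The ER Hsp70 was also compared with its counterparts elsewhere in the cell. The log2 ratio of Hspa5 to the cytosolic Hspa8 was -0.69, -0.12, -0.72 and -0.24 in libraries 1 to 4, and that to the mitochondrial Hspa9 was -0.06, 0.44, -0.13 and 0.24. Both ratios were higher in libraries 2 and 4. Of 20 cytosolic and mitochondrial chaperones, 2 were highest in library 2, 14 were highest in library 3 and 9 were lowest in library 2. The matching shares of tested genes were 29.8%, 23.8% and 30.0%. Of these 20 chaperones, 0 passed edgeR's adjusted threshold in any library. At an unadjusted p under 0.05, edgeR gave 0, 1, 0 and 1 of them for libraries 1 to 4, and DESeq2 called 0. Hspa1a, an inducible cytosolic Hsp70, averaged 3.53 TPM. Hspa8, Hsp90ab1 and Hspa1a have near-identical copies or pseudogenes, so their levels are uncertain.

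The wider pathways were measured through 109 other genes in 6 lists. Of the 108 with a known length, 103 reached 1 TPM in every library. Of the 105 that were tested, 0 passed edgeR's adjusted threshold in any comparison, and 5, 8, 3 and 0 had an unadjusted p under 0.05 for libraries 1 to 4. These are 4.76%, 7.62%, 2.86% and 0% of them, beside the 5.32%, 7.38%, 1.57% and 1.55% of all genes given above. DESeq2 called 2 of the 105, Ero1a and Slc7a11, both higher in library 2, where it called 0.397% of all genes. Ero1a, the oxidase that recharges disulfide isomerases, was at 86.2, 168, 93.1 and 104 TPM. Slc7a11, the cystine transporter, was at 4.79, 8.96, 4.60 and 4.77 TPM. Among ER folding, ERAD and translocation genes outside the members, 53 tested genes had a known length. Of these, 30 were highest in library 2 (56.6%, beside 29.8% of tested genes). In library 1, 26 were lowest (49.1%, beside 32.0% of tested genes). The highest folding enzymes were P4hb, a disulfide isomerase subunit also needed for collagen hydroxylation, at 1301, 2010, 1362 and 1800.4 TPM, and Ganab, a glucosidase that trims N-glycans, with a mean of 247 TPM. The lowest were Pdia2 (0.361 TPM) and Fkbp2, with at most 1 count in any library. Of the ERAD list, Vcp, the ATPase that extracts ERAD substrates, averaged 591 TPM and Selenok 144 TPM, whereas Derl3 (18.4 TPM) and Sel1l3 (1.80 TPM) were lowest. Of 16 translocation genes, Ssr2 (684 TPM) and Ssr3 (589.6 TPM), subunits of the complex beside the translocon, were highest, and Srp54a (9.06 TPM) and Sec11c (8.72 TPM) lowest.

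The remaining lists covered regulators and other targets. Of 9 ER membrane stress factors and their processing genes, 8 were expressed, led by Rtcb, the ligase that completes Xbp1 splicing (298 TPM), and Creb3l1, a membrane-bound factor that promotes collagen secretion. Creb3l1 was at 59.5, 160.5, 64.5 and 130.1 TPM, a range of 2.70-fold, higher in libraries 2 and 4 than in 1 and 3. Creb3l3, its liver and intestine relative, averaged 3.35 TPM, and Ern2 had 0 counts. All 12 genes of eIF2, eIF2B, the other kinases and the phosphatase were expressed, with Eif2s2 (666 TPM) and Eif2s3x (324 TPM), subunits of eIF2, highest and Eif2ak1 (39.3 TPM) and Eif2ak4 (18.4 TPM) lowest. Of 33 further ATF4 and CHOP targets, 32 had a known length, and 31 of these reached 1 TPM in every library. Among the 32, Gars1, a tRNA synthetase (564 TPM), and Psat1, of serine synthesis (364.5 TPM), were highest. Slc7a11 (5.78 TPM) and Fgf21, a stress-induced hormone (1.75 TPM), were lowest. Nars1 of that list had no matched length and so no TPM, but held 23212 to 31275 counts per library.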

How the data were processed

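The deposited values are whole-number counts per gene, which the authors did not normalize. The submitters' processing notes name STAR, featureCounts and the build GRCm39 (mm39). Tool versions, and how featureCounts was set, were not given in the sources used here. Even numbers made up 60.0% to 62.6% of counts from 1 to 8, so 1 fragment may have been counted as 2. The 37 mitochondrial rows held 0 counts.

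TPM was computed from the deposited counts with union exon lengths of GENCODE M21, matched for 48828 rows that held 98.7% to 98.9% of counts. That annotation is built on GRCm38, so lengths can differ from the authors' models. Levels are means ± SD over 4 cultures, and ratios are on log2(TPM + 0.1). Comparisons of 1 library with the other 3 used edgeR 4.0.16 (R 4.3.3, TMM factors, filterByExpr), and DESeq2 1.42.0 as an alternative. The edgeR step was also run on simulated counts. Their biological coefficient of variation was 0.1, below the 0.205 of these libraries, so nothing is concluded from that run about these data. Gene models overlapping a member were listed from the same annotation.

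Members, lists, pairs and motifs were chosen with earlier results of these data known. Named with values in each library were the highest and lowest 2 members of each role and members with an unadjusted p under 0.05 or an SD above the 90th percentile. Of each other list the highest and lowest 2 genes were named, most of them by mean level only. Outside these rules, Slc3a2, Ddit4, Dnajb11 and Sdf2l1 were given in full after their values were seen. P4hb and Creb3l1 were also given in each library by no set rule. The means of the other list leaders do not show their library order. The count of members highest or lowest in a library was added after the data were seen. Alternatives covered scaling, pseudocount, the filter on low counts and leaving out each library.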

Additional observations from a re-analysis of the deposited data

Results flagged for a closer look

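In 67 sets of 4 values (34 levels and 33 ratios), the highest or lowest value was searched for a gap to its neighbour that took more of the whole range than Dixon's limit for 4 samples. Chance flags about 1 in 20 such sets, and 3 were found. Atf6 in library 2, at 37.5 TPM, stood above the other 3 libraries. The log2 ratio of Hyou1 to the cytosolic Hsph1 was 1.22 in library 3, below the others, which lay between 1.48 and 1.51. The log2 ratio of Ddit3 to Atf4 was -2.39 in library 1, above the others, which lay between -2.90 and -2.83.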

How the results depend on the processing

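The median level of the members and the 34 levels moved by less than the spread between libraries under each alternative run for them, and the count of members at 1 TPM or more stayed at 34. The count of ER members highest in library 2 was 16 by TPM, TMM factors and DESeq2 size factors and 14 by CPM; that of those lowest in library 1 was 11 by all of these scalings. Members called against the other libraries with edgeR changed from 0 to 1 for library 1 and to 1 for library 2 with no filter on low counts. Leaving out each other library gave 0 to 9 members for library 1, 0 to 13 for library 2, 0 to 4 for library 3 and 0 to 4 for library 4, the highest values arising without libraries 3, 4, 1 and 2 respectively. The members' share was 0.957% of counts and 1.06% of summed TPM. Their median SD was 0.13, beside 0.16 with TMM factors, 0.16 with DESeq2 size factors and 0.12 to 0.15 with each library left out. Without correction for length (CPM), 20 of 33 log2 ratios moved by more than 1 SD and kept their sign. A further 2 changed sign: Atf6 to Atf6b (0.55, against -1.19 with TPM) and Herpud1 to Herpud2 (-0.51, against 0.81). With a pseudocount of 1, 2 ratios moved: Manf to Cdnf, which was 5.58 against 6.07, and Ern1 to Ern2, whose second gene had no count. No paired analysis was possible because the labels give a single group.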

Other observations

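Among ATF4 and CHOP targets outside the members, Cth and Slc1a5 were picked out after their values were seen. Cth, which makes cysteine by transsulfuration, was at 168, 91.3, 142 and 95.4 TPM in libraries 1 to 4. Slc1a5, a glutamine transporter, was at 84.6, 49.4, 77.5 and 53.6 TPM. Both were higher in libraries 1 and 3 than in 2 and 4, as Asns, Trib3 and Chac1 were, and neither passed edgeR's adjusted threshold. This split was found in 10 of the 31 such targets tested with a known length and the reverse split in 9, beside 29.05% and 30.0% of tested genes.

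Of the 82 other pathway genes with a promoter entry, Derl3 and Ero1b held the ER stress element, and 5 (Fgf21, Jdp2, Nupr1, Pycr1 and Slc7a11) held the longer core TTGCATCA.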
